A study of Mus musculus with 12 samples.

Results

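The 37 genes described here encode the fibrillar and type VI collagens and other products by which connective tissue fibroblasts are recognised. They were taken by gene symbol from tables that share 23354 genes, and all 37 were found. Of these, 36 passed the filter on low values among 13109 genes tested, and Lum was too low to be tested. They were measured in RNA of mouse embryonic stem cells that grew on fibroblast feeders, and which cells made each transcript was not tested. The libraries came from stable J1 embryonic stem cell lines, J1 being a male line. All were seeded on inactivated mouse embryonic fibroblasts and kept in serum with leukemia inhibitory factor. In the overexpression arm the lines were made to express histone H3.1, either wild type (the control, H3.1WT) or with methionine in place of lysine 9 (H3.1K9M) or of lysine 36 (H3.1K36M). In the knockdown arm they carried a hairpin against the H3K9 methyltransferase gene Suv39h1 (shSuv39h1) or Suv39h2 (shSuv39h2), or the hairpin shNC, read here as the non-targeting control. Each of the 6 groups had 2 libraries, 12 in all. For the vector, its promoter, the number of clones behind a line and any removal of feeder cells before lysis, nothing is given in the sources.

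Fibroblasts build the extracellular matrix of connective tissue. They secrete fibrillar collagens, which are crosslinked by lysyl oxidases and decorated by small proteoglycans, together with fibronectin, fibrillin and the matricellular proteins that bind cells to this network. Feeder fibroblasts are treated so that they no longer divide, and stem cells are passaged onto them because they supply attachment and growth factors. When such a culture is lysed, RNA of both cell types enters the same library. In these bulk samples fewer fibroblasts and less matrix RNA per cell cannot be told apart.

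Values are FPKM, fragments scaled to transcript length and library size, so that levels can be compared between genes. Between 12126 and 12518 genes per library reached 1 FPKM, and for a transcript of 2 kb a value of 1 FPKM rested on roughly 42.0 to 55.5 fragments. The log2 difference between both libraries of a group had an SD across tested genes of 0.223 to 0.260 in H3.1K36M, shSuv39h1, shSuv39h2 and H3.1WT, 0.345 in shNC and 0.410 in H3.1K9M. The stem cell factor gene Pou5f1 stood at 627 to 1007 FPKM in every library. Since the labels do not state if paired libraries came from separate cultures, p-values refer to the spread between libraries, and that spread may be technical. H3.1K9M replicate 1 had the highest value of 28 members and shSuv39h1 replicate 2 the lowest of 23, so results are given library by library.

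The fibroblast label was checked against its defining markers, and the data bore it out only in part. Col1a1 and Col1a2, the chains of type I collagen, reached 47.5 FPKM and 31.7 FPKM even in the library where each was lowest. By contrast, the proteoglycan genes lumican and decorin were low. Lum lay between 0 and 0.308 FPKM, and Dcn between 0.770 and 4.03 FPKM. The transcription factor genes Twist1 and Prrx1, which mark mesenchymal cells, lay at 3.80 to 9.16 FPKM and 2.97 to 14.7 FPKM. Of the other markers, Col3a1 lay at 4.03 to 22.5 FPKM and Postn at 1.86 to 10.7 FPKM. Thy1 lay at 14.2 to 22.7 FPKM and Pdgfrb at 4.15 to 6.48 FPKM. Together the 37 members made up from 0.233% of all FPKM in shSuv39h1 replicate 2 to 0.844% in H3.1K9M replicate 1.

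The group means of the collagens ran from 10.7 FPKM in shSuv39h1 to 28.8 FPKM in H3.1K36M, and libraries of the same line differed by up to 1.92-fold. Over the 8 collagen genes the geometric mean was 9.88 FPKM and 19.0 FPKM in H3.1WT replicates 1 and 2. It was 35.3 FPKM and 18.8 FPKM in H3.1K9M and 29.3 FPKM and 28.4 FPKM in H3.1K36M. In the knockdown arm it was 11.6 FPKM and 19.9 FPKM in shNC, 12.8 FPKM and 8.64 FPKM in shSuv39h1, and 17.1 FPKM and 14.5 FPKM in shSuv39h2. The highest library thus stood 4.08-fold above the lowest. Replicate 1 was 1.88-fold higher than replicate 2 in H3.1K9M, whereas replicate 2 was 1.92-fold higher in H3.1WT and 1.72-fold higher in shNC. The libraries of H3.1K36M differed by 1.03-fold. Only the H3.1K36M libraries and H3.1K9M replicate 1 stood above every control library, and H3.1K9M replicate 2 lay within the range of H3.1WT.

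**Figure D1:**
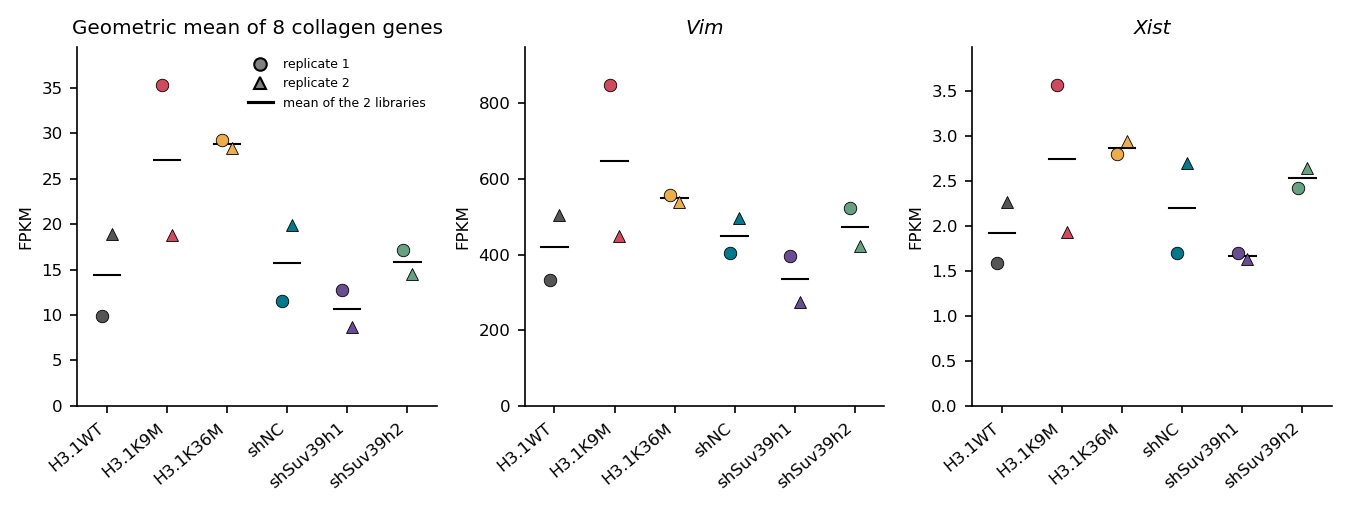
Geometric mean of the 8 collagen genes, Vim and Xist in FPKM for each of the 12 libraries (circles, replicate 1; triangles, replicate 2), with a line at the mean of each group. The collagen geometric mean runs from 8.64 FPKM in shSuv39h1 replicate 2 to 35.3 FPKM in H3.1K9M replicate 1, and the libraries of H3.1K9M, H3.1WT and shNC lie far apart.

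Every collagen gene had the pattern of the geometric mean in the groups whose libraries lay furthest apart. Col1a1 measured 59.4 FPKM and 121 FPKM in H3.1WT, 242 FPKM and 118 FPKM in H3.1K9M, 162 FPKM and 151 FPKM in H3.1K36M, 67.9 FPKM and 116 FPKM in shNC, 77.7 FPKM and 47.5 FPKM in shSuv39h1, and 108 FPKM and 87.8 FPKM in shSuv39h2. Col3a1, the type III collagen of loose connective tissue, measured 4.26 FPKM and 9.91 FPKM in H3.1WT, 17.9 FPKM and 9.26 FPKM in H3.1K9M, 22.5 FPKM and 22.5 FPKM in H3.1K36M, 4.81 FPKM and 9.998 FPKM in shNC, 5.62 FPKM and 4.03 FPKM in shSuv39h1, and 7.65 FPKM and 7.61 FPKM in shSuv39h2. The gene thus had its highest values in H3.1K36M, unlike Col1a1, which was highest in H3.1K9M replicate 1. Among the 8 genes the fold between the highest and the lowest library was smallest for Col6a2 (2.67-fold), a chain of the beaded-filament collagen VI, and largest for Col5a2 (6.503-fold), a chain of collagen V, which regulates the width of collagen fibrils.

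How closely the other members moved with the collagens was read within groups, since the libraries of a group share their line. In 4 groups, H3.1WT, H3.1K9M, shNC and shSuv39h1, the collagen level (the mean log2(FPKM + 1) of the 8 genes) differed by more than 0.4 between the libraries, a limit set after the values were seen. In all 4 of these groups 31 of the 37 members, the 8 collagens among them, were higher in the library with the higher collagen level, each collagen being set against the other 7. Outside the collagens 23 of 29 members had that pattern. Among all tested genes 16.0% had it. Ctgf, Lum and Dcn were higher there in 3 groups, Mmp2 and Pdgfrb in 2, and Fbln1 in none. Over all 6 groups 20 members had the collagens' direction in every group and 12 in 5 of them (14 and 10 outside the collagens), against 4.24% and 11.9% of all tested genes. The H3.1K36M libraries differed by only 1.03-fold in the collagen geometric mean, so a direction in that group carries little weight.

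Across the 12 libraries the same division was seen. Pearson's r with the collagen level (for a collagen, with that of the other 7) was at least 0.8 for 30 members, 22 of them outside the collagens, and under 0.5 for 3. Without H3.1K9M replicate 1 and shSuv39h1 replicate 2, the libraries farthest from the median, r was at least 0.8 for 28 members, 20 of them outside the collagens, and under 0.5 for 5. These correlations describe the libraries, which are pairs from 6 lines, and carry no test.

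**Figure D2:**
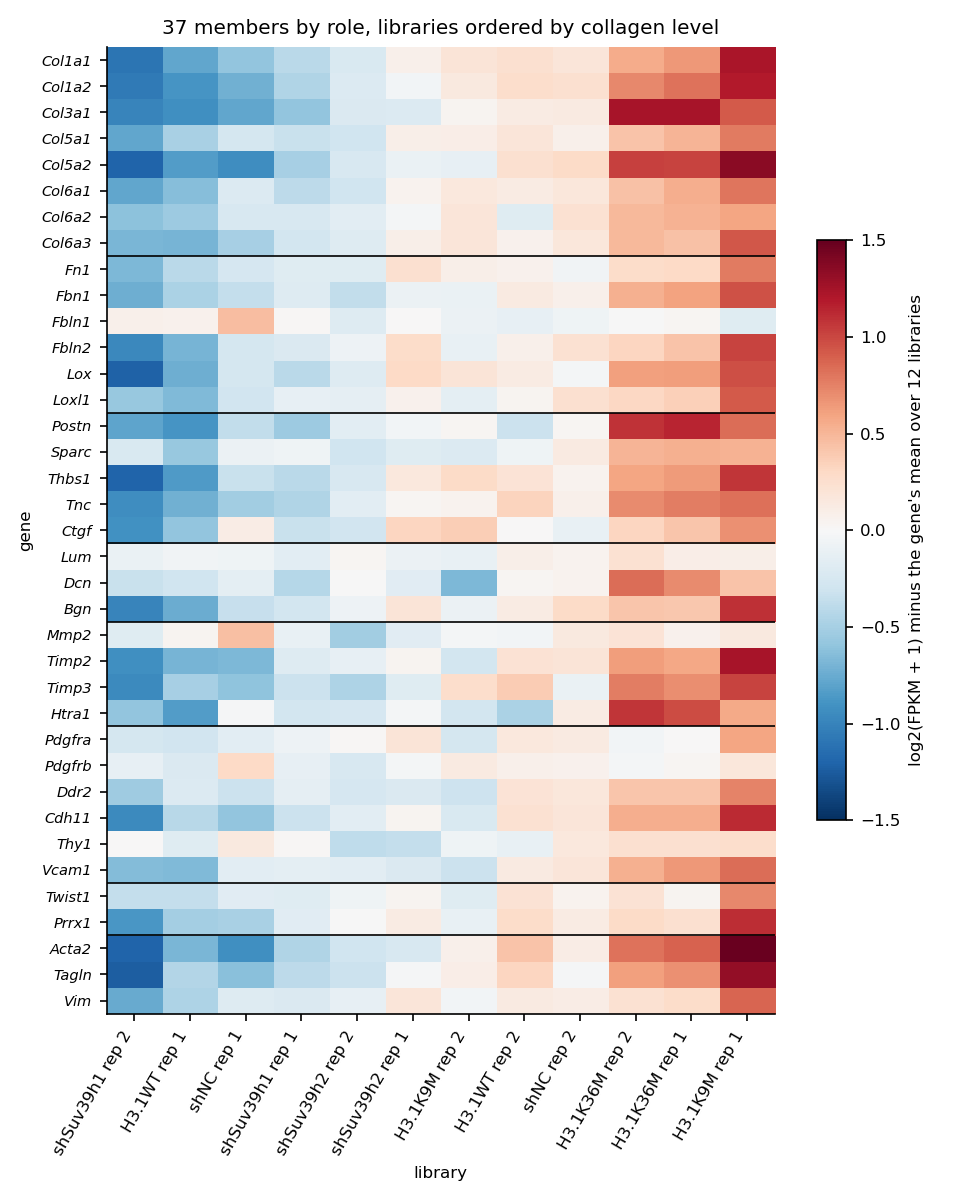
log2(FPKM + 1) of the 37 members minus each gene's mean over the 12 libraries, with genes grouped by role and libraries ordered by the collagen level from low (left) to high (right). Most rows turn from blue to red in the order of the libraries, whereas Fbln1, Mmp2 and Pdgfrb do not and Thy1 does so only faintly.

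Among the fibronectin, fibrillin, fibulin and elastic fibre genes, 5 of 6 had the direction of the collagens in all 4 groups. Fn1, which encodes the fibronectin that cells bind through integrins, was 285 FPKM and 395 FPKM in H3.1WT and 651 FPKM and 403 FPKM in H3.1K9M. It was among the most abundant members, at 236 to 651 FPKM, and its highest and lowest libraries differed by 2.76-fold. Lox and Loxl1, lysyl oxidases that crosslink collagen and elastin, spanned 21.9 to 103 FPKM and 4.93 to 16.8 FPKM. Fbn1, the main fibrillin of microfibrils, spanned 4.64 to 17.2 FPKM, and Fbln2 spanned 79.9 to 317 FPKM. Fbln1 went against its family. It was 15.8 FPKM and 13.7 FPKM in H3.1WT, 13.1 FPKM and 14.05 FPKM in H3.1K9M, 15.3 FPKM and 14.9 FPKM in H3.1K36M, 20.99 FPKM and 14.3 FPKM in shNC, 15.2 FPKM and 15.9 FPKM in shSuv39h1, and 15.1 FPKM and 13.04 FPKM in shSuv39h2. Its highest and lowest libraries differed by 1.61-fold, and the highest, shNC replicate 1, had the third lowest collagen level.

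The matricellular genes, whose products modulate how cells attach to matrix, moved with the collagens except in 1 group. Tnc (tenascin C) was 29.5 FPKM and 62.5 FPKM in H3.1WT, 88.2 FPKM and 51.2 FPKM in H3.1K9M, 84.3 FPKM and 81.4 FPKM in H3.1K36M, 34.2 FPKM and 51.9 FPKM in shNC, 35.7 FPKM and 25.3 FPKM in shSuv39h1, and 50.3 FPKM and 43.9 FPKM in shSuv39h2. Of all members it kept the most constant distance to the collagens, with an SD of 0.0921 for the difference of its log2 level from theirs. Thbs1 (thrombospondin 1) spanned 42.3 to 207 FPKM, and Sparc, a collagen-binding glycoprotein, spanned 96.2 to 208 FPKM. Ctgf, a growth factor-binding matrix protein and a target gene of YAP, was higher in the library with less collagen only in shNC, at 76.6 FPKM against 65.5 FPKM.

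Among the small leucine-rich proteoglycans, only Bgn (biglycan) was abundant, at 66.2 to 284 FPKM. It had the direction of the collagens in all 4 groups and stood 2.29-fold higher in replicate 1 than in replicate 2 of H3.1K9M. Dcn (decorin) was 2.78 FPKM and 0.770 FPKM in those libraries, the widest ratio among the members above 0.5 FPKM there at 3.61-fold. Its highest values, 3.60 FPKM and 4.03 FPKM, were in H3.1K36M, and it was listed at 1.09 FPKM and 1.24 FPKM in shSuv39h1, against the direction of the collagens.

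The matrix proteases and inhibitors divided. Timp2 and Timp3, inhibitors of metalloproteinases, spanned 29.8 to 137 FPKM and 9.003 to 38.1 FPKM and had the direction of the collagens in all 4 groups. So did Htra1, a secreted serine protease. Mmp2, the gelatinase that cleaves denatured collagen, did not. It was 15.6 FPKM and 14.7 FPKM in H3.1WT, 16.9 FPKM and 14.8 FPKM in H3.1K9M, 15.9 FPKM and 17.6 FPKM in H3.1K36M, 21.1 FPKM and 16.9 FPKM in shNC, 13.9 FPKM and 13.2 FPKM in shSuv39h1, and 13.4 FPKM and 10.2 FPKM in shSuv39h2. The highest library was shNC replicate 1, as for Fbln1, and shSuv39h2 replicate 2 was the lowest.

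Surface receptors ranged from genes that moved with the collagens to genes that hardly moved. Cdh11, the mesenchymal cadherin, spanned 4.28 to 21.2 FPKM, and Vcam1, an adhesion receptor for integrins, spanned 0.987 to 4.60 FPKM. Ddr2, a receptor tyrosine kinase that binds fibrillar collagen, spanned 1.27 to 4.53 FPKM. Pdgfra and Pdgfrb, the receptors for platelet-derived growth factor on mesenchymal cells, spanned 1.47 to 3.55 FPKM and 4.15 to 6.48 FPKM. Pdgfra still had the direction of the collagens in all 6 groups, but at a slope of 0.30 log2 units per log2 unit of collagen level. Thy1, a surface glycoprotein used to sort fibroblasts, was 16.4 FPKM and 17.3 FPKM in H3.1WT, 22.7 FPKM and 17.9 FPKM in H3.1K9M, 22.4 FPKM and 22.4 FPKM in H3.1K36M, 20.9 FPKM and 21.1 FPKM in shNC, 19.0 FPKM and 18.8 FPKM in shSuv39h1, and 14.4 FPKM and 14.2 FPKM in shSuv39h2. Its libraries lay close together in every group but H3.1K9M. Thy1 had the direction of the collagens in all 6 groups, but at a slope of 0.19. Its log2 difference between libraries was no larger than 0.024 in H3.1K36M, shNC, shSuv39h1 and shSuv39h2, so the direction there means little.

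The mesenchymal transcription factor gene Prrx1 was 14.7 FPKM in H3.1K9M replicate 1 and at most 7.91 FPKM in any other library. Twist1 was 9.16 FPKM there and at most 6.18 FPKM elsewhere. The cytoskeletal genes had the direction of the collagens in all 6 groups. Acta2, the smooth muscle actin of contractile fibroblasts, was 30.4 FPKM and 67.3 FPKM in H3.1WT, 140 FPKM and 52.3 FPKM in H3.1K9M, 92.2 FPKM and 88.2 FPKM in H3.1K36M, 25.7 FPKM and 53.6 FPKM in shNC, 35.9 FPKM and 21.1 FPKM in shSuv39h1, and 41.9 FPKM and 40.3 FPKM in shSuv39h2. At 6.65-fold it had the widest range of the members that were tested. Tagln, an actin-binding protein of the same cells, spanned 37.3 to 224 FPKM. Vim, the intermediate filament gene of mesenchymal cells, was the most abundant member in every library, at 274 to 847 FPKM, and spanned 3.09-fold.

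**Figure D3:**
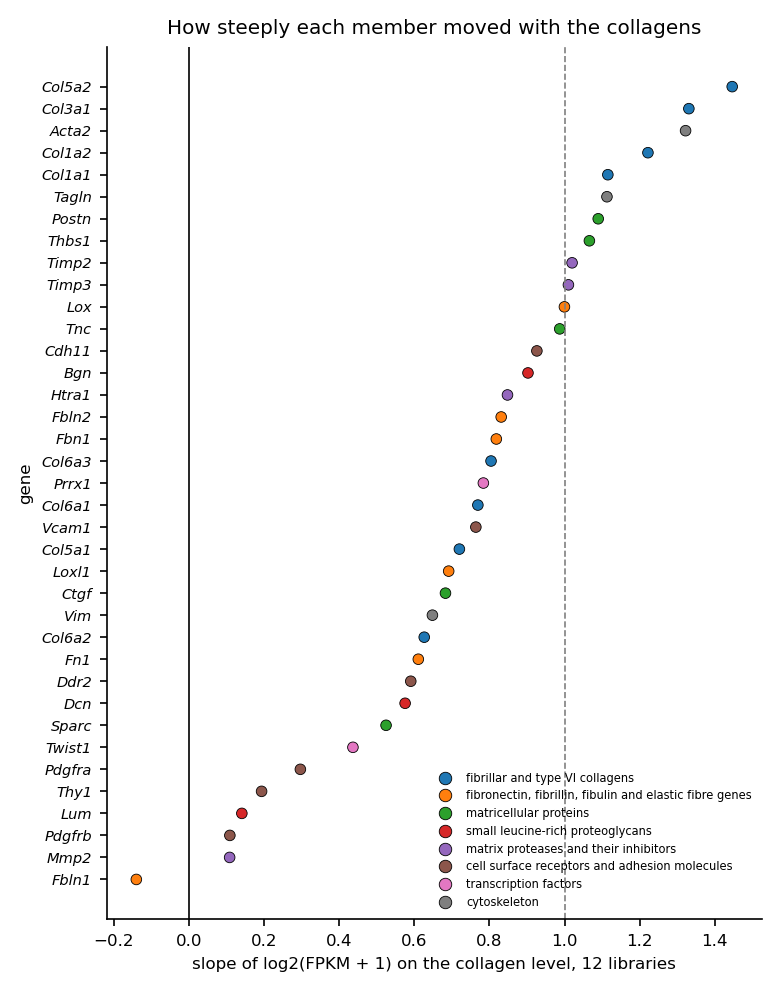
Slope of log2(FPKM + 1) on the collagen level over the 12 libraries for each member, coloured by role, with a dashed line at 1 and each collagen set against the other 7. Slopes run from -0.14 for Fbln1 to 1.45 for Col5a2, and Thy1, Lum, Pdgfrb, Mmp2 and Fbln1 lie at or below 0.19.

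The slopes placed the members in an order. Col5a2 (1.45), Col3a1 (1.33), Acta2 (1.32) and Col1a2 (1.22) varied more than the collagen level, and Timp2 (1.02), Timp3 (1.01), Lox (1.00) and Tnc (0.99) varied with it one to one. Fn1 (0.61) and Vim (0.65), both above Col1a1 in every library in FPKM, varied less. At the lower end stood Twist1 (0.44), Pdgfra (0.30), Thy1 (0.19), Pdgfrb (0.11), Mmp2 (0.11) and Fbln1 (-0.14). For low genes such as Lum, Vcam1 and Pdgfra the added 1 FPKM flattens the slope, so that it understates their variation, whereas Fbln1, Mmp2 and Thy1 all exceeded 10 FPKM in every library.

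**Figure D4:**
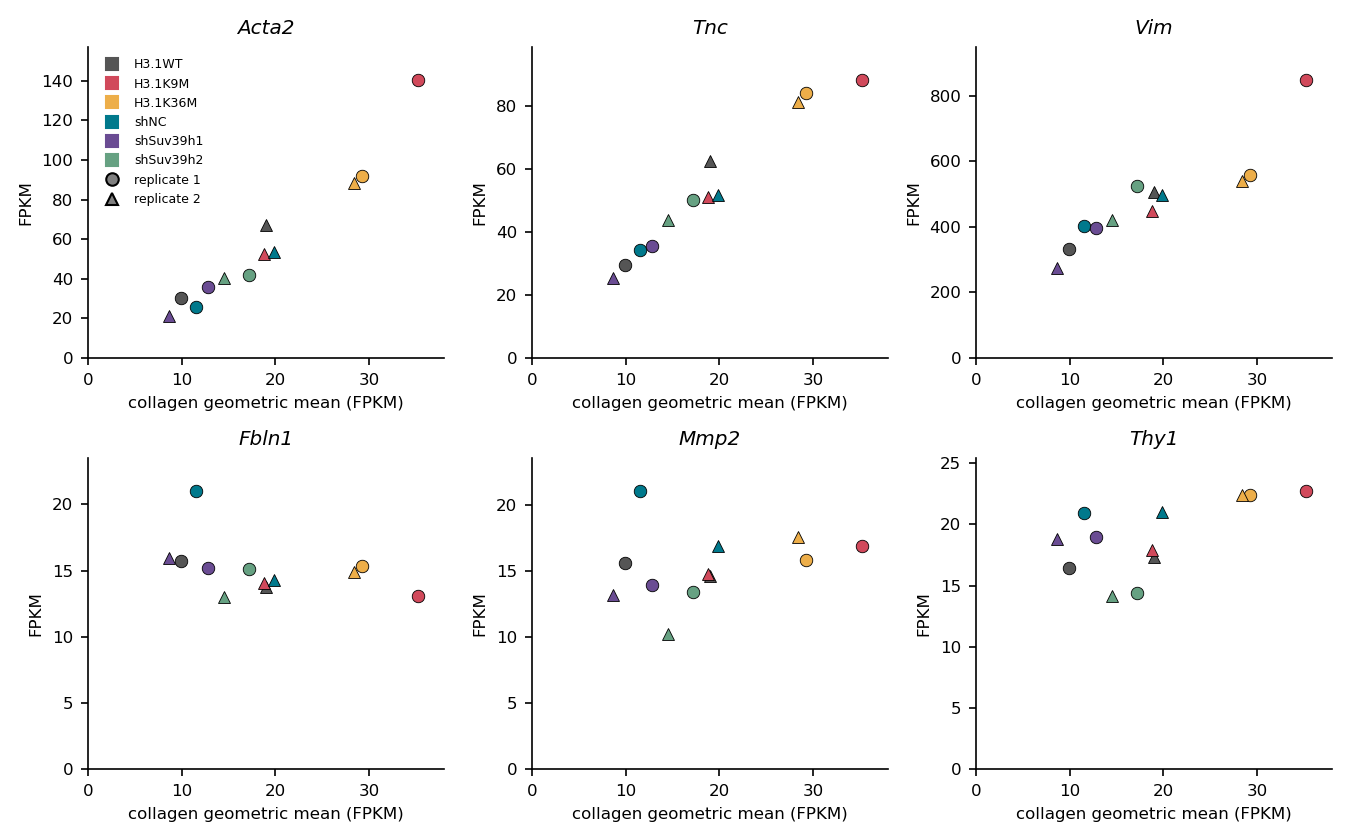
FPKM of 6 members against the collagen geometric mean in FPKM, 1 point per library (colour, group; circle, replicate 1; triangle, replicate 2). Acta2, Tnc and Vim rise along the collagen axis, whereas Fbln1, Mmp2 and Thy1 stay between 10.2 and 22.7 FPKM.

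The first comparison asked how matrix genes stood in cells with H3.1K36M. In limma, with p-values adjusted by the Benjamini-Hochberg method over all 13109 genes, 4 of 36 members rose against H3.1WT and none fell, where 4.84% of all tested genes passed in either direction. An unadjusted p under 0.05 was found for 18 of the 36 members, against 20.8% of all tested genes. Those 4 were the collagen genes Col3a1 and Col6a2, the matricellular gene Postn and the protease gene Htra1. Both H3.1K36M libraries exceeded both H3.1WT libraries for 31 of the 36 tested members, against 38.2% of all tested genes. The median log2 fold change of the members was 0.75 and that of all tested genes 0.03. The collagen level itself was 4.93 ± 0.0306 (SD, n = 2) in H3.1K36M and 3.94 ± 0.603 in H3.1WT on the log2 scale, a difference of 0.99. Without H3.1WT replicate 1 that difference was 0.563, and without H3.1K36M replicate 1, H3.1K36M replicate 2 or H3.1WT replicate 1 no member passed.

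Postn, which encodes periostin, a collagen-binding matricellular protein, was 10.7 FPKM and 10.2 FPKM in H3.1K36M and 1.86 FPKM and 3.22 FPKM in H3.1WT. In the remaining libraries it was 8.43 FPKM and 4.39 FPKM in H3.1K9M, 3.08 FPKM and 4.38 FPKM in shNC, 2.61 FPKM and 2.05 FPKM in shSuv39h1, and 4.12 FPKM and 3.75 FPKM in shSuv39h2. The H3.1K36M libraries were the highest of the 12, and Postn was 4.13-fold higher there than in H3.1WT (log2 fold change 1.72, SE 0.262, limma adjusted p = 0.00679). Postn lies on chromosome 3 at 54361109-54391037, plus strand (GENCODE M21, GRCm38).

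Htra1 was 30.3 FPKM and 32.3 FPKM in H3.1K36M and 7.91 FPKM and 10.4 FPKM in H3.1WT. Its values were 22.6 FPKM and 12.1 FPKM in H3.1K9M, 14.6 FPKM and 16.3 FPKM in shNC, 12.1 FPKM and 9.52 FPKM in shSuv39h1, and 14.6 FPKM and 12.4 FPKM in shSuv39h2. It was thus 3.41-fold higher in H3.1K36M than in H3.1WT (log2 fold change 1.68, SE 0.239, limma adjusted p = 0.00514), again with the H3.1K36M libraries on top. Htra1 lies on chromosome 7 at 130936111-130985660, plus strand.

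The collagen genes were nearer the threshold. Col3a1, on chromosome 1 at 45311538-45349706, plus strand, rose by a log2 fold change of 1.64 (SE 0.394, limma adjusted p = 0.0465) and passed in 5 of 12 fits that each left out 1 library. Col6a2, on chromosome 10 at 76595762-76623630, minus strand, measured 8.76 FPKM and 8.58 FPKM in H3.1K36M against 3.68 FPKM and 5.002 FPKM in H3.1WT. Its log2 fold change was 0.87 (SE 0.201, limma adjusted p = 0.0415), and it passed in 4 of 12 such fits. Col1a1 and Col1a2 had log2 fold changes of 0.87 and 1.08 at adjusted p values of 0.269 and 0.207. Sparc (206 against 116 FPKM, limma adjusted p = 0.0650) and Thy1 (22.4 against 16.9 FPKM, limma adjusted p = 0.0631) came close to the threshold, the latter at a slope of only 0.19 on the collagen level over the 12 libraries.

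To ask which members differed beyond the collagens of the same library, the collagen level entered the model as a covariate. It was read for the 28 tested members outside the collagens. The level includes Col3a1 and Col6a2, which rose in H3.1K36M, so it holds part of the group difference. Each gene has 1 slope for all 6 groups, and the H3.1K36M libraries hardly differed in collagen level (SD 0.0306). The adjustment there thus rests on a slope taken largely from other lines. With the covariate 2.18% of all tested genes were higher and 1.21% lower in H3.1K36M. Postn remained higher, with a log2 difference of 1.03 (SE 0.132, limma adjusted p = 0.00432), and so did Htra1, with 1.09 (SE 0.173, limma adjusted p = 0.0127). Postn passed in 11 of 12 fits that also left out 1 library, failing without H3.1WT replicate 2 (adjusted p = 0.0842), and Htra1 passed in 9. Prrx1 passed in the other direction. At 7.62 FPKM and 7.91 FPKM in H3.1K36M it lay close to the 7.82 FPKM of H3.1WT replicate 2, whose collagens were lower, and its log2 difference beyond the collagen level was -0.71 (SE 0.162, limma adjusted p = 0.0436). It passed in 4 of 12 fits that left out 1 library.

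**Figure D5:**
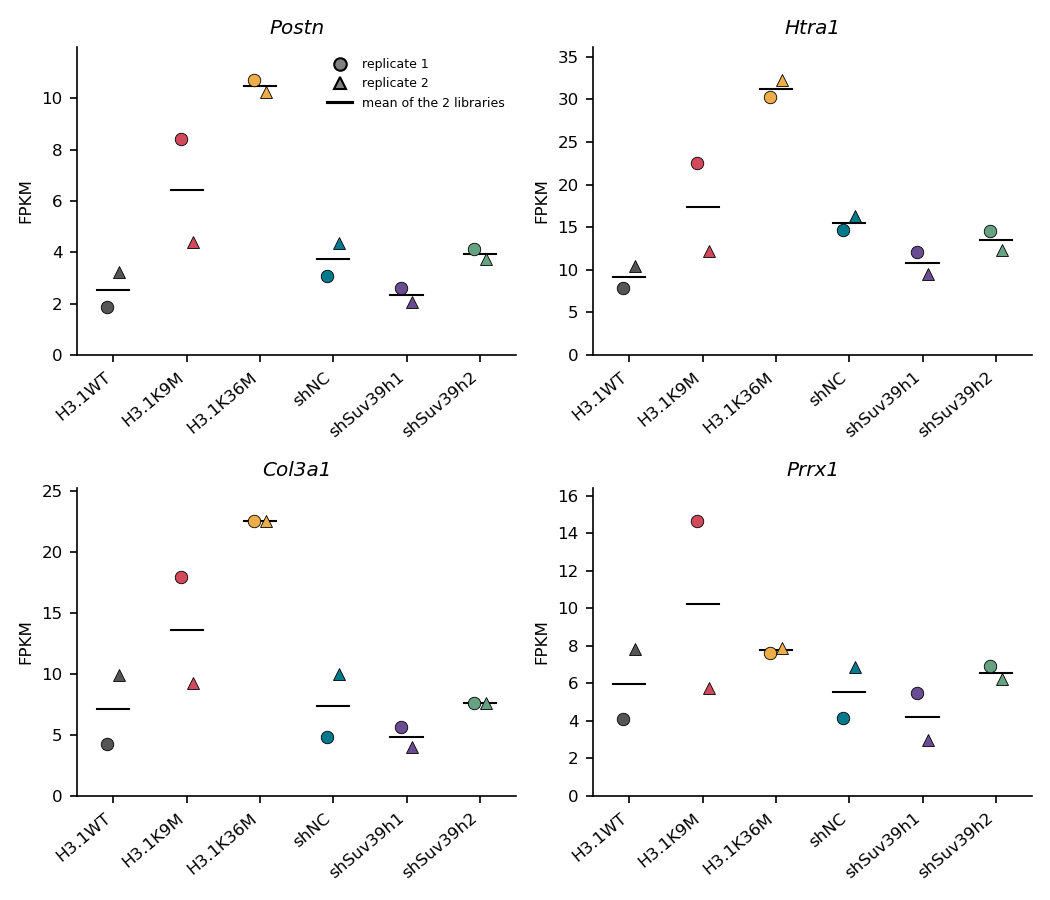
FPKM of Postn, Htra1, Col3a1 and Prrx1 in each library (circles, replicate 1; triangles, replicate 2), with a line at the mean of each group of 2. Postn, Htra1 and Col3a1 have their highest values in H3.1K36M, and Prrx1 has its highest value of 14.7 FPKM in H3.1K9M replicate 1.

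The stretches just upstream of these 4 genes are shown because they were the members that rose in H3.1K36M. Each is 120 bases long, read 5′ to 3′ on the gene's strand from RefSeq promoter windows (GRCm38.p6), with any TATAAA in capitals.
Postn, chr3:54360987-54361106, plus strand: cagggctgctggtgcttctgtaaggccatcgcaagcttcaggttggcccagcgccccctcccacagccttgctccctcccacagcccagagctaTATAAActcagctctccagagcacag
Htra1, chr7:130935991-130936110, plus strand: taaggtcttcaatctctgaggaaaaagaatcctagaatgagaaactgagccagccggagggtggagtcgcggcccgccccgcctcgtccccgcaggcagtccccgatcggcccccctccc
Col3a1, chr1:45311418-45311537, plus strand: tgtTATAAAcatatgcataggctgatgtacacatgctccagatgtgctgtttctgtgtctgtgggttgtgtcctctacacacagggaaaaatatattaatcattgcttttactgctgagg
Col6a2, chr10:76623631-76623750, minus strand: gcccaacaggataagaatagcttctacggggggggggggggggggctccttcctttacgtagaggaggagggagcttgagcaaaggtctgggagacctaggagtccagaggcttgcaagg

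In Postn the TATAAA begins 26 bases before the end of the stretch, and in Col3a1 it begins 117 bases before it. The other Postn window, which lies further upstream and is not shown, held no TATAAA. The Htra1 and Col6a2 stretches held none of the 4 motifs searched. Windows were found for 22 of the 37 members, 26 windows in all. The counts that follow refer to whole windows, which are longer than the stretches shown and reach further upstream. TATAAA, searched on the gene's strand, was in 6 of these 26 windows, from 5 of the 22 members, and in 7.55% of 32536 windows of all genes. The pair of Tnc windows overlap and share 1 TATAAA, which is counted in both. On either strand GGAATG, the core recognised by TEAD factors, was in 4 of 26 and 12.6%. These 4 windows belong to Acta2, Col3a1, Prrx1 and Col6a2, the last being another Col6a2 window that is not shown. In Col3a1 the match begins 168 bases before the end of the window, outside the stretch shown. TGANTCA, the core of AP-1 sites, was in 1 of 26, that of Col6a1, and 6.73%. The CArG box of serum response factor, which can overlap TATAAA, was searched only in the exact form CCWWWWWWGG, W being A or T. That form was in 0 of 26 and 1.48%, and boxes that depart from it by a base were not counted. These matches are letters in a window and no measure of binding.

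In cells with H3.1K9M none of 36 members passed against H3.1WT, where 0.313% of all tested genes passed in either direction. An unadjusted p under 0.05 was found for 11 of the 36 members, against 11.2% of all tested genes. The members' median log2 fold change was 0.70, against -0.01 for all tested genes. Both H3.1K9M libraries exceeded both H3.1WT libraries for 11 of the 36 tested members, against 14.6% of all tested genes. Those members included Postn (6.41 ± 2.86 against 2.54 ± 0.964 FPKM, SD, n = 2, limma adjusted p = 0.214), Col6a2 (7.98 ± 1.79 against 4.34 ± 0.935 FPKM, limma adjusted p = 0.237) and Ctgf (103 ± 16.4 against 58.8 ± 17.4 FPKM, limma adjusted p = 0.302). For most others the libraries overlapped, since H3.1K9M replicate 2 stood beside H3.1WT replicate 2: Col1a1 was 118 FPKM and 121 FPKM, Tagln 95.7 FPKM and 112 FPKM, and Acta2 52.3 FPKM and 67.3 FPKM in those libraries. The difference in collagen level was 0.84 on the log2 scale with every library, 0.405 when replicate 1 of H3.1K9M was left out and 1.27 when its replicate 2 was. In that last fit 5 members passed. With the collagen level as a covariate no member outside the collagens passed, where 0.183% of all tested genes did.

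After knockdown of Suv39h1 every tested member had a lower mean than in shNC, by log2 fold changes of -0.67 (Lox) to -0.14 (Thy1), and none passed, where 0.145% of all tested genes passed. The median was -0.43, against 0.04 for all tested genes, and 3 members had an unadjusted p under 0.05, against 10.6% of all tested genes. Both shSuv39h1 libraries lay below both shNC libraries for 14 tested members, against 12.7% of all tested genes. Vim was 397 FPKM and 274 FPKM against 403 FPKM and 497 FPKM, and Mmp2 was 13.9 FPKM and 13.2 FPKM against 21.1 FPKM and 16.9 FPKM (limma adjusted p = 0.300). Col1a1 overlapped, since shSuv39h1 replicate 1 at 77.7 FPKM exceeded shNC replicate 1 at 67.9 FPKM. The collagen level differed by -0.48, by -0.834 without shNC replicate 1 and by -0.120 without shNC replicate 2. Beyond the collagen level no member passed, where 0.214% of all tested genes did.

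In cells with the hairpin against Suv39h2 the collagen geometric means of 17.1 FPKM and 14.5 FPKM lay between those of the shNC libraries, and Thy1 and Mmp2, whose slopes on the collagen level were 0.19 and 0.11, fell. The collagen level differed by 0.05, and its sign turned without shNC replicate 1 (-0.305). Of 36 members 2 fell and none rose, where 4.69% of all tested genes fell and 5.35% rose. Thy1 fell from 20.9 FPKM and 21.1 FPKM in shNC to 14.4 FPKM and 14.2 FPKM (log2 fold change -0.52, SE 0.101, limma adjusted p = 0.0122). Mmp2 fell from 21.1 FPKM and 16.9 FPKM to 13.4 FPKM and 10.2 FPKM (log2 fold change -0.65, SE 0.139, limma adjusted p = 0.0191). For Mmp2 the shNC mean of 19.0 FPKM was the highest of the 6 groups. The shSuv39h1 libraries, at 13.9 FPKM and 13.2 FPKM, also lay below both shNC libraries. Both shSuv39h2 libraries lay below both shNC libraries for 6 tested members, against 21.3% of all tested genes, so the members' share was not above that of other genes. Neither gene passed without shNC replicate 1 or without shSuv39h2 replicate 2, and Thy1 did not pass without shSuv39h2 replicate 1 either.

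With the collagen level as a covariate, the differences for Thy1 (-0.53, limma adjusted p = 0.00360) and Mmp2 (-0.65, limma adjusted p = 0.0127) hardly moved, and 7.06% of all tested genes were then lower. Thy1 passed in 12 of 12 such fits that each left out 1 library and Mmp2 in 10, failing without shNC replicate 1 or shSuv39h2 replicate 2 (adjusted p of 0.0993 and 0.0792). Thy1 lies on chromosome 9 at 44043384-44048579 and Mmp2 on chromosome 8 at 92827291-92853420, both on the plus strand. Pdgfrb, whose slope was also 0.11, was 4.93 FPKM and 4.15 FPKM against 6.48 FPKM and 5.34 FPKM and did not pass (limma adjusted p = 0.144), and Fbln1 overlapped at 15.1 FPKM and 13.04 FPKM against 20.99 FPKM and 14.3 FPKM.

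The control lines of the arms were also compared. No member passed between H3.1WT and shNC, where 0.336% of all tested genes did, and 2 members had an unadjusted p under 0.05, against 11.4% of all tested genes. The median log2 fold change was -0.11, against 0.02 for all tested genes. The libraries did not overlap for 3 members, all lower in H3.1WT, a pattern held by 16.3% of all tested genes: Htra1 (7.91 FPKM and 10.4 FPKM against 14.6 FPKM and 16.3 FPKM), Thy1 (16.4 FPKM and 17.3 FPKM against 20.9 FPKM and 21.1 FPKM) and Mmp2 (15.6 FPKM and 14.7 FPKM against 21.1 FPKM and 16.9 FPKM). Beyond the collagen level Htra1 was lower in H3.1WT, by -0.63 (SE 0.128, limma adjusted p = 0.0479), where 0.595% of all tested genes were lower, and it passed in 3 of 12 fits that left out 1 library. Thus the H3.1WT libraries against which Htra1 was high in H3.1K36M held the lowest Htra1 values but for shSuv39h1 replicate 2. Against the shNC libraries, which belong to another arm and were not tested against H3.1K36M, the H3.1K36M values of 30.3 FPKM and 32.3 FPKM were still higher.

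Genes related to the members were read from lists fixed by function, with earlier results of these data known. Among 26 other stromal matrix genes, 19 were tested, and none passed in any of the 5 comparisons. In all 4 groups with a gap 15 of those 19 had the direction of the collagens, against 16.0% of all tested genes. The summed level of the list ran from 152 to 547 FPKM, in the same lowest and highest libraries as the members. Igfbp7, a secreted growth factor-binding protein, spanned 42.4 to 195 FPKM. Of 10 tested metalloproteinases and inhibitors outside the members, none passed, and Timp1 spanned 88.4 to 280 FPKM, whereas Mmp11 was higher in the library with fewer collagen transcripts in all 4 groups. Itgb1, the common beta chain of collagen- and fibronectin-binding integrins, spanned 74.0 to 216 FPKM. Itga11, the alpha chain of a collagen-binding integrin, rose in H3.1K36M from 0.719 to 2.25 FPKM (limma adjusted p = 0.00576), the only one of 15 matrix receptor genes to pass there. It also passed with the collagen level as a covariate (limma adjusted p = 0.0416), where 2 of the 15 genes passed as higher and 1 as lower. Among all tested genes 4.84% passed without the covariate, and with it 2.18% were higher and 1.21% lower.

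Other genes typical of fibroblasts had a wider range than the enzymes that process collagen. Of 20 other fibroblast genes 16 were tested and 12 of these had the direction of the collagens in all 4 groups. Among all tested genes 16.0% did, and the counts of the next lists stand beside the same share. The sum of the fibroblast list ran from 679 to 2287 FPKM. S100a6 and Lgals1, the most abundant, spanned 288 to 985 FPKM and 215 to 586 FPKM. In this list Nt5e, which encodes the ectonucleotidase CD73, fell in H3.1K36M (1.53 against 3.02 FPKM, limma adjusted p = 0.0165) and rose in shSuv39h2 (4.09 against 2.15 FPKM, limma adjusted p = 0.00981), and no other gene passed. Of all tested genes 4.84% passed in either direction in H3.1K36M, and in shSuv39h2 5.35% rose and 4.69% fell. Of 17 collagen processing enzymes and chaperones 9 had the direction of the collagens in all 4 groups, and their sum spanned 1.46-fold. Serpinh1, the collagen chaperone, spanned 36.3 to 113 FPKM. P4hb, a subunit of prolyl hydroxylase that also serves as a disulfide isomerase, stayed at 276 to 387 FPKM and fell in shSuv39h2 from 353 to 281 FPKM (limma adjusted p = 0.0329). Among 14 contractile cytoskeleton genes 9 had the direction of the collagens in all 4 groups and none passed in any comparison, and Tpm1, a tropomyosin, spanned 68.2 to 218 FPKM. Of 8 target genes of YAP and SRF 6 had that direction, and none passed.

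Among 12 basement membrane genes 2, the collagen IV genes Col4a1 and Col4a2, had the direction of the collagens in all 4 groups, where 16.0% of all tested genes did. The median r of the list with the collagen level was 0.599, against 0.045 for the genes with a mean of at least 3 FPKM. Its summed level spanned 1.38-fold, with H3.1WT replicate 1 lowest and H3.1K9M replicate 1 highest. Nid2, which encodes nidogen 2 and was the highest of them at 97.8 to 150 FPKM, had the opposite direction in all 4 groups. In H3.1K36M, where 4.84% of all tested genes passed in either direction, 3 of the 12 rose: Lama1 (23.0 against 9.73 FPKM, limma adjusted p = 0.000467), Hspg2 (47.0 against 30.7 FPKM, 0.0391) and Agrn (52.0 against 36.1 FPKM, 0.0165). With the collagen level as a covariate Lama1 passed (limma adjusted p = 0.00176), and Hspg2 (0.212) and Agrn (0.0989) did not. Lama1, a laminin chain of early embryonic basement membranes, also rose in shSuv39h1 from 9.21 to 18.4 FPKM (limma adjusted p = 0.0224), where the stromal collagens were low. Among ligands and receptors of the TGF-beta and PDGF families, Pdgfa (36.5 against 21.0 FPKM, limma adjusted p = 0.00650) and Pdgfc (6.12 against 2.75 FPKM, 0.0472), which encode ligands of Pdgfra, rose in H3.1K36M. With the covariate Pdgfa passed (limma adjusted p = 0.0325) and Pdgfc did not (0.215). Pdgfra itself stood at 1.97 FPKM there and 1.91 FPKM in H3.1WT.

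Markers of other cells were set beside the members. The 15 pluripotency genes summed to 3682 FPKM in H3.1K9M replicate 1, the lowest library, and to 5848 FPKM in shSuv39h2 replicate 2. None of them had the direction of the collagens in all 4 groups, against 16.0% of all tested genes. The opposite direction in all 4 was seen for 4 of them, against 16.7%. Of the 15, 3 rose in H3.1K36M, where 4.84% of all tested genes passed in either direction. In shSuv39h2 4 rose, where 5.35% of all tested genes rose, and none fell in either comparison. Xist, which is transcribed from the inactive X chromosome of female cells, was 1.59 FPKM and 2.26 FPKM in H3.1WT, 3.56 FPKM and 1.93 FPKM in H3.1K9M, 2.79 FPKM and 2.94 FPKM in H3.1K36M, 1.70 FPKM and 2.70 FPKM in shNC, 1.70 FPKM and 1.63 FPKM in shSuv39h1, and 2.42 FPKM and 2.64 FPKM in shSuv39h2. It was higher in the library with more collagen in all 4 groups with a gap. The labels do not give the sex of the feeders, and the part of feeder RNA in any result above was not tested directly.

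The lists for blood vessels, blood, muscle and cartilage held genes near 0 beside expressed ones. The 8 endothelial genes summed to 9.66 to 13.3 FPKM, and Cdh5, Tie1 and Emcn stayed at or below 0.558 FPKM. Tek, the angiopoietin receptor gene and the highest of them, rose in H3.1K36M (4.55 against 2.74 FPKM, limma adjusted p = 0.0144) and fell in shSuv39h2 (1.35 against 3.65 FPKM, limma adjusted p = 0.000807). The 9 blood and macrophage genes summed to 32.9 to 57.1 FPKM, most of it from the lysozyme gene Lyz2 (15.8 to 37.6 FPKM) and Cd68 (6.53 to 19.3 FPKM), while Ptprc stayed at or below 0.182 FPKM and Hbb-b1 was listed at 0 throughout. Emr1, a macrophage surface receptor gene, rose in H3.1K36M (2.19 against 0.610 FPKM, limma adjusted p = 0.0203) but did not pass with the collagen covariate (limma adjusted p = 0.130). The 9 muscle and cartilage genes summed to 16.8 to 26.2 FPKM, with Des (desmin) highest and Myod1 and Myog at or below 0.311 FPKM. The cartilage genes Acan (2.41 against 4.44 FPKM, limma adjusted p = 0.00881) and Col2a1 (1.47 against 2.70 FPKM, limma adjusted p = 0.0191) fell in shSuv39h2. Of the genes tested, none of 5 endothelial and none of 5 blood and macrophage genes had the direction of the collagens in all 4 groups, while 2 of 6 muscle and cartilage genes did, the actin gene Acta1 (1.70 to 11.6 FPKM) and the cartilage factor gene Sox9 (0.421 to 1.69 FPKM). Among all tested genes 16.0% had that direction, so counts in lists this short say little.

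Genes of early embryonic lineages also differed between H3.1K36M and H3.1WT, the comparison in which 4 members rose. Of 6 tested mesoderm genes 4 fell against H3.1WT (T, Mixl1, Eomes and Hand1), with a median log2 fold change of -1.10 over the 6. Of all 13109 tested genes 228 fell in this comparison and 406 rose. T, Mixl1 and Eomes were also higher in H3.1WT than in shNC, where 28 of 13109 tested genes were called higher. The 10 listed mesoderm genes summed to 22.5 FPKM and 29.1 FPKM in H3.1WT and 24.1 FPKM and 21.2 FPKM in H3.1K9M. Their sum was 7.73 FPKM and 8.32 FPKM in H3.1K36M, near the 8.09 FPKM and 8.32 FPKM of shNC. Mixl1, a homeobox gene of the primitive streak, was 0.772 FPKM in H3.1K36M and 3.60 FPKM in H3.1WT (limma adjusted p = 0.00455). Of 8 tested primitive and visceral endoderm genes 2 rose in H3.1K36M, Amn and Cited1, and Gata4 fell. The 7 neural genes summed to 177 FPKM and 169 FPKM in H3.1K36M and 89.7 FPKM and 101 FPKM in H3.1WT, and Tubb3, a neuronal tubulin gene, rose from 74.1 to 145 FPKM (limma adjusted p = 0.00583). The part of these lineages in the members' differences was not tested.

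Among 9983 other genes with a mean of at least 3 FPKM, those most like the collagen level over the 12 libraries were Col8a1 (Pearson's r 0.991), Prss23, Ccdc80, Serpina3h, Dok1, Inhba, Colec12, Grb10, Col12a1 and Serpinf1 (0.978). Col8a1 and Col12a1 encode further collagen chains, and Inhba a subunit of activin. In all, 176 of these genes (1.76%) had an r of at least 0.9, and the median r was 0.045. Inhba spanned 16.1 to 76.6 FPKM, and Col12a1 spanned 3.06 to 18.3 FPKM.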

How the data were processed

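Poly(A) RNA of 12 libraries was sequenced by the submitters. Per the labels' protocols, RNA was extracted with Trizol, and both the NEBNext Ultra and TruSeq v2 kits are named, without saying which library used which. The authors deposited 1 FPKM value for each gene symbol and library, and per the submitters' processing notes the tools were TopHat2 2.0.13 and Cuffdiff 2.2.1 with mm10. Their settings, the annotation and any scaling between libraries are not given in the sources used. The tables hold 23355 genes each and have 23354 in common. Depth was approximated from steps between low values, and 64.6% to 73.1% of those values were whole steps within 0.05. For a step fixed in advance chance gives 10%, but each library's step was picked for a high share, so that figure understates chance. Counts were not recovered.

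limma 3.58.1 (R 4.3.3) was run on log2(FPKM + 1), which understates the change of low genes. Genes reaching 1 FPKM in at least 2 libraries were kept, and 1 fit over 12 libraries and 6 group means used an empirical Bayes trend, 6 residual degrees of freedom and a threshold of 0.05 on Benjamini-Hochberg adjusted p. Folds are ratios of mean FPKM. An exact permutation test of 2 against 2 libraries cannot go below p = 0.333, so none was used. The scripts were tested on simulated data. The collagen level is the mean log2(FPKM + 1) of 8 collagen genes.

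The members and lists were chosen with earlier results of these data known. All members may be named. From each other list up to 4 genes with the highest mean were nameable, with called genes of lists holding 5 or fewer calls, Xist, and up to 10 genes most like the collagen level. Genes of the other lists named for their low values or their direction were chosen after these were seen. Alternatives were a pseudocount of 0.1, no filter or one of 5 FPKM, median-of-ratios or quantile scaling, a replicate block, weights by array quality, fits by arm, the collagen covariate and leaving out each library. The covariate together with leaving out a library was added after seeing the data. Positions are from GENCODE M21 and promoters from RefSeq.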

Additional observations from a re-analysis of the deposited data

How the results depend on the processing

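For the 6 members called without the covariate, no setting that was run turned the sign. For members outside the collagens as a whole, the covariate turned the sign of 19 of 28 in H3.1K9M, 18 in H3.1K36M, 15 in shSuv39h1, 2 in shSuv39h2 and 4 between the controls, for example Prrx1 (0.38 to -0.71), Timp2 (0.84 to -0.50) and Acta2 (0.98 to -0.45) in H3.1K36M. In H3.1K36M the 634 genes called became 354 with a filter of 5 FPKM, 2983 with array quality weights and 191 within the arm, and the 4 members called became 2 with no filter, quantile normalization or the replicate block, 19 with weights and 0 within the arm. In H3.1K9M the 41 genes called became 12 with no filter, 27 with 5 FPKM, 1 with weights, 2 within the arm and 24 with the collagen covariate. In shSuv39h1 the 19 became 11 with a pseudocount of 0.1, 10 with the replicate block and 3 within the arm. In shSuv39h2 the 1316 became 860 with weights, 861 within the arm and 2082 with the covariate, and the 2 members called became 1 within the arm. Between H3.1WT and shNC the 44 became 29 with 5 FPKM and 177 with the covariate, and the members called went from 0 to 1, Htra1. The arm fits use fewer libraries, and for the other settings the cause was not tested.

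Leaving out 1 library at a time, genes called ranged from 2 to 696 in H3.1K9M, 58 to 1189 in H3.1K36M, 0 to 59 in shSuv39h1, 358 to 2000 in shSuv39h2 and 7 to 158 between H3.1WT and shNC. Members called ranged from 0 to 5, 0 to 7, 0 to 0, 0 to 3 and 0 to 0. The difference in collagen level ranged from 0.405 to 1.27, 0.563 to 1.42, -0.834 to -0.120, -0.305 to 0.409 and -0.551 to 0.302, so that its sign was not fixed in shSuv39h2 or between the controls. Of the members called, Col3a1 kept its call under 1 of 8 other settings, failing for example with a pseudocount of 0.1 (adjusted p = 0.0538), and Col6a2 under 4 of 8. Postn and Htra1 kept theirs under 8 of 9 each, failing within the arm (adjusted p of 0.0597 and 0.0531).

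Replicate numbers are shared between groups, and deviations of same-numbered libraries correlated between -0.384 and 0.517, with no common sign. These deviations include the gaps in collagen level, whose direction differed between groups, so a pairing can be neither seen nor excluded from them. The replicate block is therefore a setting only. Beside the counts above, it changed no count by more than 1.5 times. Fits that leave a group with 1 library assume that it varies like the others. FPKM near 0, as for Lum, rest on few fragments.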

Other observations

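The genes most opposite to the collagen level over the 12 libraries, chosen after their values were seen, were largely ribosomal protein genes. Of the 10 with the lowest Pearson's r among 9983 genes, 9 encoded ribosomal proteins, among them Rps20 (r = -0.965, 2077 to 2823 FPKM) and Rpl10 (-0.953, 1364 to 1708 FPKM). The other was Lsm5 (67.4 to 107 FPKM). Their levels varied far less than those of the collagens: Rps20 was lowest in a library at 2077 FPKM and highest at 2823 FPKM, while Col1a1 ran from 47.5 to 242 FPKM. These values share libraries and scaling with the collagens and carry no test.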
